A study of Mus musculus with 40 samples.

Results

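Forebrain patterning transcription factors are homeodomain, T-box and DM-domain proteins that set up the front of the embryonic brain, and 9 of their genes were followed here through 2 histone marks in cultured oligodendrocyte progenitor cells (OPCs) of the mouse. The 9 genes, *Emx1*, *Emx2*, *Otx1*, *Otx2*, *Six3*, *Six6*, *Tbr1*, *Eomes* and *Dmrta2*, were picked by their known role in patterning. The choice was made with earlier results of these data known. The genes are 9 of the 21951 protein-coding genes in the annotation. For each gene the called peaks of H3K27me3 and H3K4me3 were read in its gene body and in its promoters, taken as windows that reach 2000 bp before and 1000 bp past each annotated transcript start (mm10). The OPCs came from the brainstem or from the dorsal telencephalon, which the sample labels call cortex, of mouse litters at postnatal days 5 to 7. K27M cultures carried a conditional knock-in of the K27M mutation in H3.3, switched on by a GFAP-promoter Cre (AMGFAP-Cre in the labels), so that the mutant protein came from its own locus in cells that had expressed Cre or descended from them. Control cultures came from littermates, which the study describes as lacking Cre. Tissue was pooled by region and genotype, depleted on a BSL1 lectin dish, panned with an antibody to PDGFRa and grown in proliferation medium, and none of the cultures used here had been differentiated. There were 2 brainstem cultures (59 and 61) and 3 telencephalon cultures (59, 60 and 61) of each genotype, with 1 library of each mark per culture, so 20 libraries in all, and a control and a K27M culture with the same tissue and number formed 1 of 5 matched pairs.

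H3K27me3, written by Polycomb repressive complex 2, covers developmental regulators that a cell keeps silent, whereas H3K4me3 marks the starts of active or poised genes, and a promoter that carries both is called bivalent. The K27M histone inhibits the Polycomb enzyme and lowers H3K27me3 over much of the genome. Many patterning factors are controlled by Polycomb, and OPCs keep a memory of the brain region in which they arose. *Emx1*, *Emx2* and *Dmrta2* act in the cortical primordium, *Otx1* and *Otx2* in forebrain and midbrain, *Six3* and *Six6* in the most anterior neural plate and the eye, and *Eomes* and *Tbr1* one after the other in cortical neuron production. A called peak says where a mark stood out from input DNA, not how much of the mark there was, and peaks from a culture cannot tell a mark in all cells from a mark in some.

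The H3K27me3 libraries held 4739 to 64808 peaks and touched the promoters of 6.41% to 30.1% of protein-coding genes. The H3K4me3 libraries were closer to one another, with 20961 to 31200 peaks at 58.8% to 65.1% of those genes. Both telencephalon libraries numbered 59 stood apart. Their H3K27me3 peaks numbered 12715 in the control and 4739 in K27M, each the fewest of its tissue and genotype, and the median fold enrichment of their H3K4me3 peaks was 3.57 and 4.98, against 6.55 to 13.8 in the other 8 H3K4me3 libraries. Counts between tissues and pairs are also given without these cultures where they decide them. Telencephalon control 60 had the highest median H3K4me3 fold enrichment, 13.8. The study's read statistics also list the most duplicate reads among the H3K4me3 libraries for it. The fewest H3K4me3 peaks were those of brainstem K27M 61, 20961 over 31.3 Mb, against 29291 over 48.6 Mb in brainstem K27M 59. Its part in the lower H3K4me3 coverage of brainstem pair 61 was not tested. All 6 OPC markers, among them *Pdgfra*, *Olig2* and *Sox10*, had an H3K4me3 promoter peak in 10 of 10 libraries, and 3 of 4 microglial genes (*Aif1*, *Cx3cr1* and *Csf1r*) and 2 of 4 endothelial genes (*Pecam1* and *Cdh5*) had one in 0 of 10. The remaining markers of those lists did have H3K4me3 peaks, *P2ry12* in 8 of 10, *Kdr* in 10 of 10 and *Cldn5* in 5 of 10, and of the astrocyte genes *Slc1a3* had one in 10 of 10, *Gfap* in 6 of 10 and *Aqp4* in 1 of 10. The 3 neuronal genes *Rbfox3*, *Neurod1* and *Stmn2* carried H3K27me3 in all 10, and the first pair also carried H3K4me3 in all 10. The hindbrain factor *Hoxa2* had an H3K4me3 promoter peak in 4 of 4 brainstem libraries, and also in telencephalon control cultures 60 and 61.

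Sequence is shown for the 250 bases just upstream of the most 5′ protein-coding start, a part of the promoter windows, at *Emx2* and *Eomes*. Both marks differed between the tissues in controls at *Emx2*, and *Eomes* had lower H3K4me3 coverage in K27M in every pair. The comparisons used the whole promoter windows, and no test was made on these bases alone. They were read from GRCm38 (mm10) in the direction of transcription, with CG dinucleotides in capitals.
Emx2 (chr19:59458122-59458371, plus strand, overlapping an exon of the antisense RNA *Emx2os*): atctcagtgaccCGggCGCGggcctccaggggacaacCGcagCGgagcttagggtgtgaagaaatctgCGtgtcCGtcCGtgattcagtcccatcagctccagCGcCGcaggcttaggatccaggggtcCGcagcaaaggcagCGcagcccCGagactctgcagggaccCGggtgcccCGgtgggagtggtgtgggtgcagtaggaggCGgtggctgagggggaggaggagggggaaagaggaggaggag
Eomes (chr9:118477962-118478211, plus strand): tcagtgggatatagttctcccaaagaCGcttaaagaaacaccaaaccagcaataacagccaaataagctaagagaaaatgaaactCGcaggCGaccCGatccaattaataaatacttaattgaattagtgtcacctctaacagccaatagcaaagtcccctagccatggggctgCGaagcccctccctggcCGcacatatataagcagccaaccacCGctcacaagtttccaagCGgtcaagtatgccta
These windows held 16 CG dinucleotides in *Emx2* and 8 in *Eomes*. Over 21665 protein-coding genes the median was 9, and 30.6% and 53.1% of genes held at least as many. Among the 9 genes *Dmrta2* had the most at 20, matched or exceeded by 20.8% of genes, and *Tbr1* the fewest at 5, matched or exceeded by 64.5%. All 250 bases of the *Emx2* window lay under an H3K4me3 peak in 6 of 6 telencephalon libraries and under an H3K27me3 peak in 4 of 4 brainstem libraries. H3K27me3 also covered all of it in 1 of 3 telencephalon K27M libraries, and H3K4me3 touched it in 2 of 2 brainstem controls and 0 of 2 brainstem K27M libraries. The *Eomes* window was wholly under H3K27me3 in all 10, and H3K4me3 touched it in 2 of 2 brainstem controls, 0 of 2 brainstem K27M, 3 of 3 telencephalon control and 2 of 3 telencephalon K27M cultures.

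H3K27me3 was present at most of these promoters whatever the tissue or genotype. For 7 of the 9 genes a promoter peak was found in all 10 H3K27me3 libraries, as for 5.79% of protein-coding genes, and the exceptions were *Emx2* and *Otx1*. The whole promoter window of *Otx2*, *Six3*, *Six6*, *Eomes* and *Dmrta2*, 5 of 9, lay under H3K27me3 in every library, as for 0.929% of protein-coding genes. H3K4me3 had peaks at 4 of 9 promoters in all 10 libraries (*Emx1*, *Otx1*, *Eomes* and *Dmrta2*), against 58% of protein-coding genes, and never at *Six6*.

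**Figure D1:**
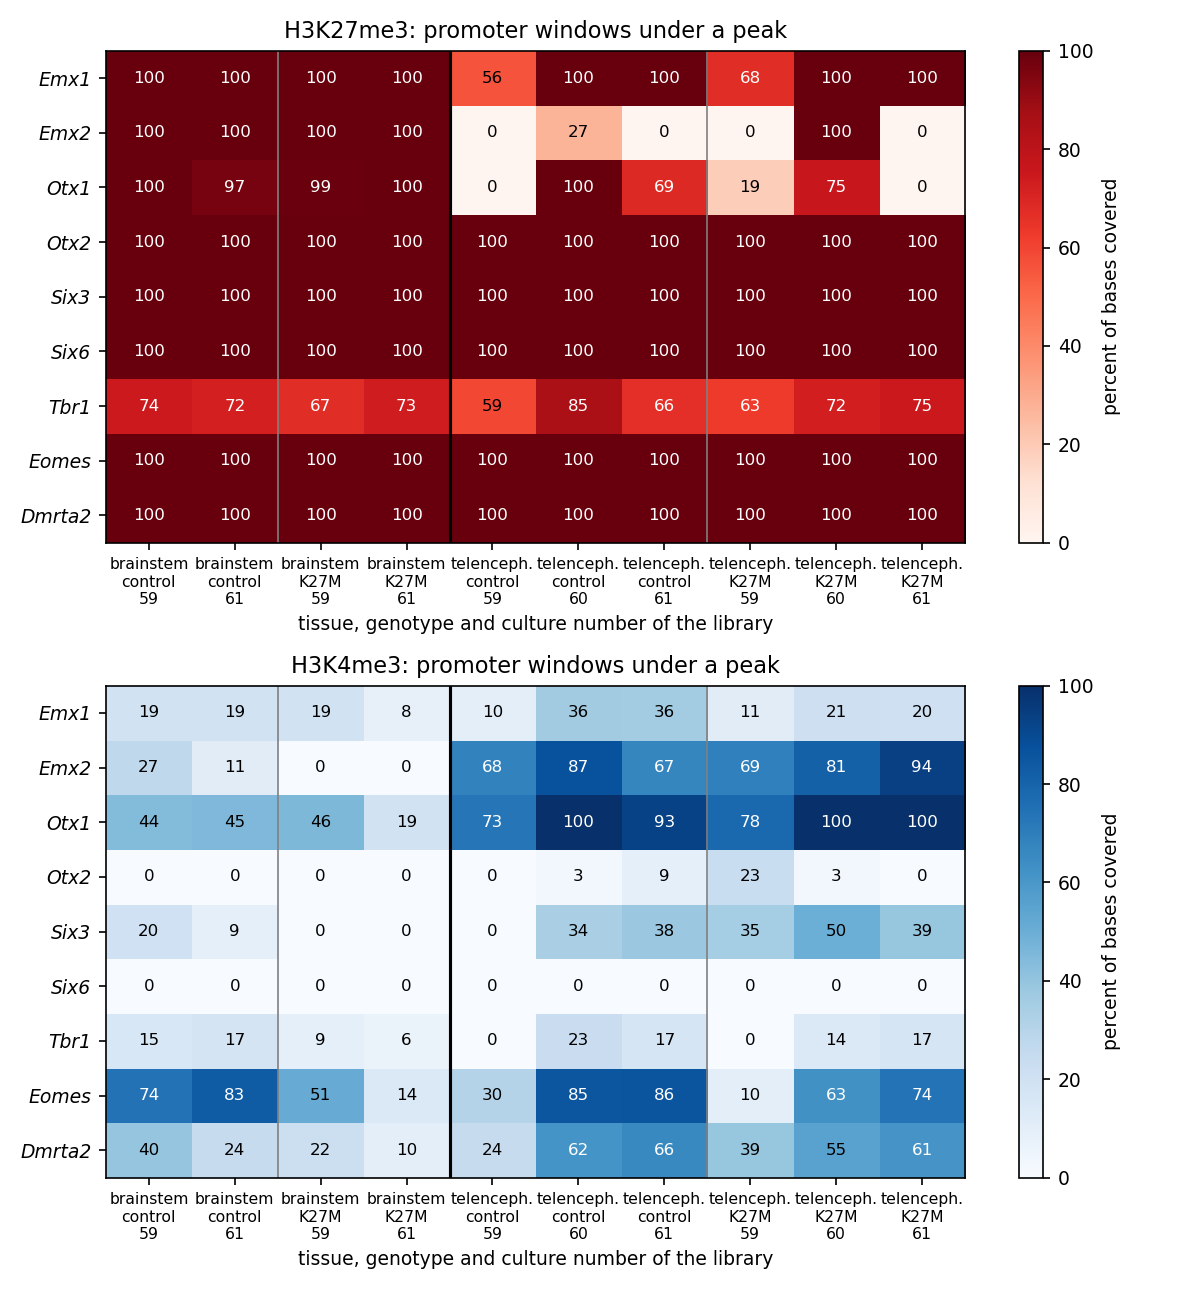
Percent of each gene's promoter bases under a called peak (colour and printed number) for H3K27me3 (top) and H3K4me3 (bottom) in the 10 libraries of each mark, named by tissue, genotype and culture number. *Emx2* and *Otx1* are the genes with pale H3K27me3 cells, all of them in telencephalon columns, and both genes have darker H3K4me3 cells in every telencephalon column than in any brainstem column.

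*Emx2* (ENSMUSG00000043969.4, chr19:59458372-59465357, plus strand) encodes a homeodomain factor that patterns the cortex from its caudal and medial side. Its promoter windows, 7147 bp from 3 transcripts, share 40.3% of their bases with those of the antisense RNA *Emx2os*, and ChIP cannot assign a peak to either strand. H3K27me3 covered 100% of them in all 4 brainstem libraries. In the telencephalon the covered share was 0%, 27% and 0% in control cultures 59, 60 and 61, and 0%, 100% and 0% in the K27M cultures of the same numbers. Only culture 60 had any H3K27me3 there in the telencephalon, and its K27M library, with a single merged peak of 24.3 kb, looked like a brainstem library in extent. Its highest fold enrichment over input was 5.57, against 26.1 and 33.8 in the brainstem K27M cultures. *Hoxa2* had an H3K4me3 promoter peak in 0 of 3 telencephalon K27M cultures, and in 2 of 3 telencephalon controls, culture 60 among them. The other hindbrain Hox genes read as regional markers also had such a peak in 0 of 3 telencephalon K27M cultures. In telencephalon controls they had it in 0, 2 and 1 of 3. In K27M culture 60 H3K4me3 still covered 81.2% of the *Emx2* windows. Whether the 2 marks sat in the same cells was not tested.

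The *Emx2* H3K4me3 coverage ran the other way. It was 27.2% and 11.2% in the brainstem controls and 0% in both brainstem K27M cultures. In the telencephalon it was 68.1%, 87.4% and 66.9% in the controls and 68.8%, 81.2% and 93.7% in K27M. No brainstem value reached the lowest telencephalon value in either genotype. The brainstem H3K27me3 domain extended far past the gene, as 1 merged peak of 27.4 and 29.8 kb in the controls and 29.3 and 28.1 kb in K27M. The gene body followed the promoters, with 100% under H3K27me3 in the 4 brainstem libraries, 31.7% in telencephalon control 60, 100% in telencephalon K27M 60 and 0% in the other 4. In telencephalon control culture 59 the nearest H3K27me3 peak lay 55.8 kb from the promoter windows.

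*Emx1* (ENSMUSG00000033726.8, chr6:85187438-85204462, plus strand), the closest relative of *Emx2* and a marker of dorsal telencephalic progenitors and their neurons, did not share this pattern. H3K27me3 covered 100% of its 6000 bp of promoter windows in the 4 brainstem libraries and in telencephalon cultures 60 and 61 of both genotypes. Culture 59 was the exception, with 56.1% in the control and 67.5% in K27M. H3K4me3 covered 18.8% and 18.9% in brainstem controls, 19.0% and 7.95% in brainstem K27M, 9.68%, 36.0% and 35.8% in telencephalon controls and 11.2%, 21.1% and 20.4% in telencephalon K27M, so the tissues overlapped in both genotypes. In telencephalon controls 60 and 61 its strongest H3K4me3 peak had a fold enrichment of 72.0 and 38.5, and H3K27me3 covered the whole window in the same cultures. Those values were at or above that of 57.8% and 28.6% of the genes with an H3K4me3 promoter peak in the same library, so they were not high for these libraries.

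*Otx1* (ENSMUSG00000005917.15, chr11:21994764-22002897, minus strand), a homeodomain factor needed for cortical growth and corticospinal neurons, was the other gene whose H3K27me3 promoter peaks were missing from some telencephalon libraries. Its H3K27me3 coverage was 100% and 96.7% in brainstem controls and 98.9% and 99.7% in brainstem K27M. Telencephalon controls 59, 60 and 61 had 0%, 100% and 68.5%, and the K27M cultures had 18.9%, 75.5% and 0%. Telencephalon cultures thus differed from one another as widely as the scale allows, and the order of the cultures was not the same in the 2 genotypes. Where a peak was called in the telencephalon its highest fold enrichment was 7.87 and 2.93 in controls and 2.02 and 3.30 in K27M, against 8.02 and 8.51 in brainstem controls and 27.1 and 30.9 in brainstem K27M. All 6 telencephalon libraries had an H3K27me3 peak past the 3′ end of the gene, and 2.98 to 18.7 kb were covered within the gene and 50 kb to each side.

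H3K4me3 at *Otx1* covered 44.0% and 45.1% of the windows in brainstem controls, 45.6% and 19.1% in brainstem K27M, 73.0%, 100% and 92.8% in telencephalon controls and 77.9%, 100% and 100% in telencephalon K27M. Every telencephalon value was above every brainstem value. In the brainstem the H3K4me3 peak at its start sat inside the gene's H3K27me3 domain of 20.9 to 21.4 kb.

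**Figure D2:**
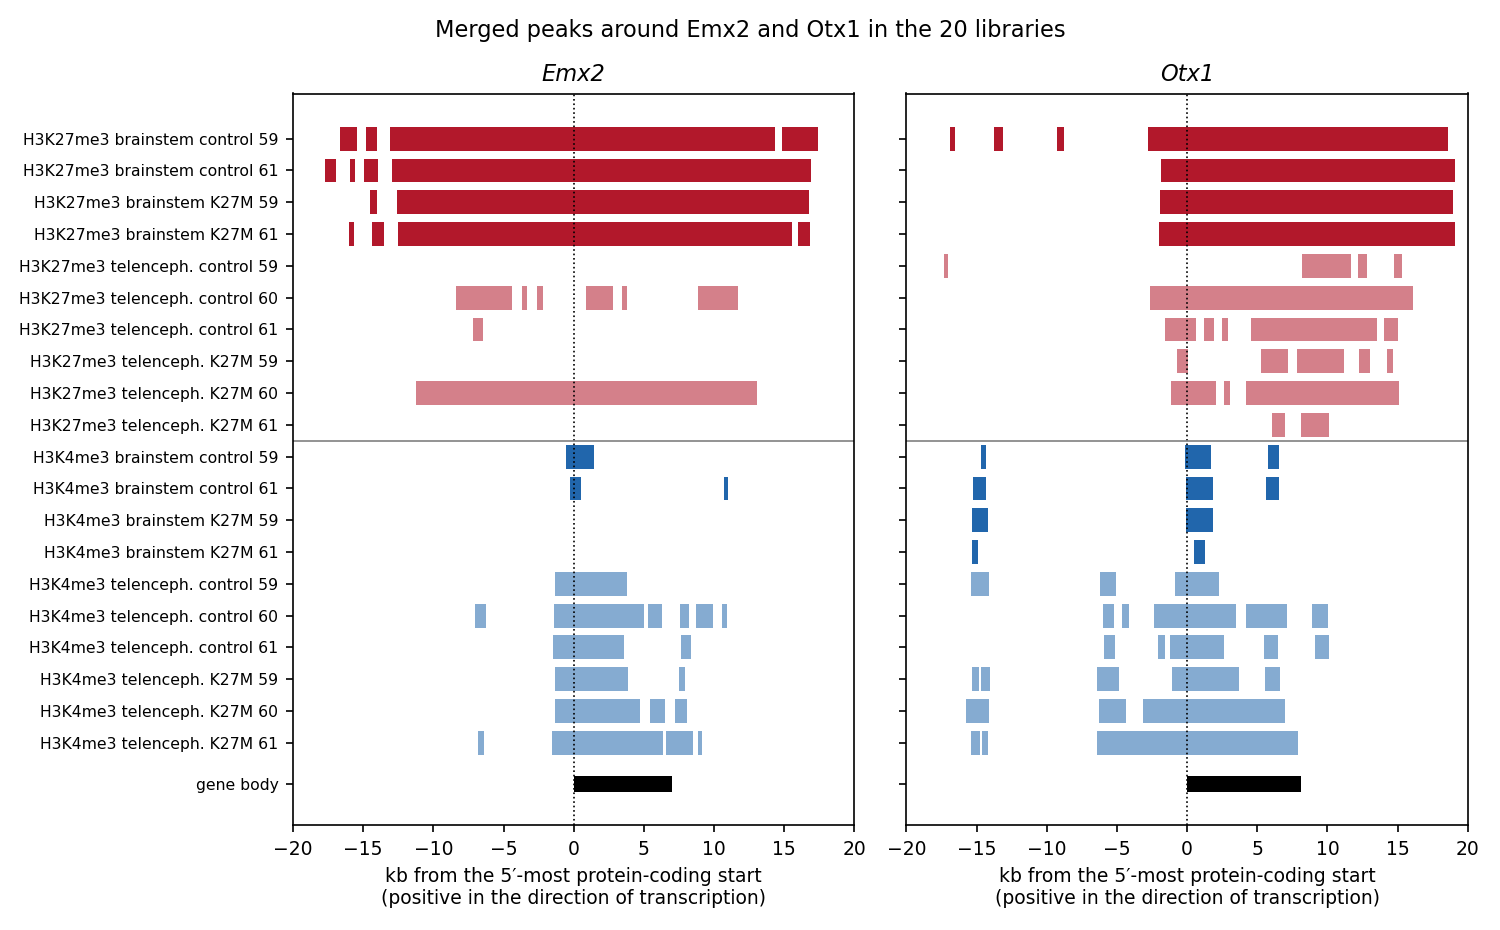
Merged peaks within 20 kb of the most 5′ protein-coding start of *Emx2* (left) and *Otx1* (right), 1 row per library, H3K27me3 in red above the line and H3K4me3 in blue below it, telencephalon in the paler shade, with the gene body in black. Long H3K27me3 peaks span both genes in the 4 brainstem libraries. Telencephalon culture 60 also has gene-spanning H3K27me3 peaks, over *Emx2* in K27M and over *Otx1* in the control. H3K4me3 peaks at both starts are longer in the 6 telencephalon libraries than in the brainstem ones.

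*Otx2* (ENSMUSG00000021848.16, chr14:48657677-48673819, minus strand), which is required to form the forebrain and midbrain, lay wholly under H3K27me3 in all 10 libraries, promoters and gene body alike. The merged peak over its promoters was 31.3 to 40.3 kb long in controls and 28.1 to 38.4 kb in K27M. H3K4me3 was absent from the peak lists of all 4 brainstem libraries at this gene. In the telencephalon it covered 0%, 2.97% and 9.04% of the 11712 bp of windows in controls and 23.3%, 3.03% and 0% in K27M, and these peaks ranked low, with a fold enrichment at or above that of 0.438% to 16.6% of the genes with an H3K4me3 promoter peak in the same library. *Otx1* and *Otx2* therefore shared H3K27me3 in the brainstem and differed in the telencephalon.

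*Six3* (ENSMUSG00000038805.10, chr17:85613608-85629302, plus strand), which represses posteriorising signals in the anterior neural plate, and *Six6* (ENSMUSG00000021099.6, chr12:72939892-72944899, plus strand), an eye and pituitary factor, lay under H3K27me3 over 100% of their promoter windows in all 10 libraries. Around *Six3*, 36.0 to 79.2 kb of the gene and 50 kb to each side were covered in controls and 28.6 to 60.3 kb in K27M. *Six6* had no H3K4me3 peak at its promoter or body in any library, and its window is shared wholly with that of the oppositely transcribed gene *4930447C04Rik*. *Six3* H3K4me3 coverage was 20.0% and 8.68% in brainstem controls and 0% in both brainstem K27M cultures, and it was 0%, 33.7% and 38.2% in telencephalon controls and 35.4%, 49.8% and 39.4% in telencephalon K27M. Its windows share 29.4% of their bases with those of the antisense RNA *Six3os1*, and a peak in the shared bases cannot be assigned to either gene.

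*Eomes* (ENSMUSG00000032446.14, chr9:118478212-118486132, plus strand), the T-box factor of intermediate cortical progenitors, lay under H3K27me3 over its whole 3649 bp of windows in all 10 libraries and also had H3K4me3 in all 10. H3K4me3 coverage was 74.4% and 83.1% in brainstem controls, 50.9% and 13.8% in brainstem K27M, 30.5%, 85.3% and 85.6% in telencephalon controls and 9.76%, 62.5% and 74.0% in telencephalon K27M. The lowest value of each telencephalon group was culture 59. *Tbr1* (ENSMUSG00000035033.15, chr2:61802930-61814114, plus strand), the T-box factor of early-born deep-layer neurons, had H3K27me3 over 74.5% and 72.1% of its windows in brainstem controls, 67.5% and 73.4% in brainstem K27M, 59.3%, 85.2% and 66.5% in telencephalon controls and 62.6%, 72.5% and 74.7% in telencephalon K27M. No library covered the whole of the *Tbr1* windows, and tissues and genotypes overlapped. *Tbr1* H3K4me3 covered 0% to 22.9% of the windows, with 0% in both telencephalon cultures numbered 59.

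*Dmrta2* (ENSMUSG00000047143.3, chr4:109978053-109983687, plus strand), a DM-domain factor of the medial cortex, had its single 3000 bp promoter window and its gene body wholly under H3K27me3 in all 10 libraries. Coverage therefore could not show a difference, but the fold enrichment of its peaks could. Its highest H3K27me3 fold enrichment was at or above that of 97.8% to 99.2% of the genes with a promoter peak in each of the 4 brainstem libraries. The same rank in the telencephalon was 66.8%, 97.9% and 98.3% in controls and 73.5%, 88.2% and 69.3% in K27M. Apart from *Emx2* and *Otx1*, no other of the 9 genes had a telencephalon K27M rank as low as that of *Dmrta2* in culture 61. H3K4me3 covered 39.5% and 24.4% in brainstem controls, 21.8% and 9.90% in brainstem K27M, 24.3%, 61.7% and 65.9% in telencephalon controls and 39.4%, 55.4% and 61.1% in telencephalon K27M.

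The first comparison asked whether these promoters carried less H3K27me3 and more H3K4me3 in OPCs of telencephalic origin than in those of the brainstem. In control cultures 1 of 9 genes, *Emx2*, had lower H3K27me3 coverage in every telencephalon than in every brainstem culture, against 0.843% of protein-coding genes. The *Emx2* means were 100% ± 0 (SD, n = 2) in brainstem and 9.01% ± 15.6 (SD, n = 3) in telencephalon, a difference of -91.0 percentage points (exact permutation test, two-sided, p = 0.1, the smallest p that 2 against 3 cultures allow). For *Otx1* the means were 98.4% ± 2.33 and 56.2% ± 51.1, and the groups overlapped (exact permutation p = 0.4). Without telencephalon control 60 the count was 3, with *Otx1* and *Tbr1* added, against 1.59% of protein-coding genes. Higher H3K27me3 coverage in every telencephalon control was met by 0 of 9 genes, against 0.223% of protein-coding genes, but all genes apart from *Tbr1* had a brainstem control at 100% and could not have met it.

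In K27M cultures the gene below every brainstem value was *Otx1*, again 1 of 9, against 1.74% of protein-coding genes, with means of 99.3% ± 0.594 (SD, n = 2) and 31.5% ± 39.3 (SD, n = 3). Its difference of -67.9 points had an exact permutation p of 0.2, above the smallest possible because the 3 telencephalon values spread so widely. *Emx2* dropped out through culture 60, where it was wholly covered, and without that K27M culture both genes were counted, against 3.88% of protein-coding genes. Higher coverage in every telencephalon K27M culture was met by 0 of 9, against 0.214% of protein-coding genes, and 7 of the 9 genes were at 100% in both brainstem K27M cultures.

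H3K4me3 coverage was higher in every telencephalon control than in every brainstem control at 2 of 9 genes, *Emx2* and *Otx1*, against 0.528% of protein-coding genes. The *Emx2* means were 19.2% ± 11.4 in brainstem and 74.1% ± 11.5 in telencephalon, and those of *Otx1* were 44.5% ± 0.842 and 88.6% ± 14.0 (SD, n = 2 and 3, exact permutation p = 0.1 for each). In K27M the count was 4 of 9, with *Six3* and *Dmrta2* added, against 1.17% of protein-coding genes. The differences in K27M were 81.2 points for *Emx2*, 60.3 for *Otx1*, 41.5 for *Six3* and 36.1 for *Dmrta2*, each with an exact permutation p of 0.1. The control difference at *Six3* was 9.63 points and at *Dmrta2* 18.7 points, with overlapping groups. These counts depended on the measure and on culture 59. By the highest fold enrichment of a promoter peak, 0 of 9 genes were higher in every telencephalon control and 2 of 9 (*Emx2* and *Six3*) in every telencephalon K27M culture, and the fold enrichment in telencephalon control 59 was 3.78 at *Emx2* and 2.78 at *Otx1*, against up to 12.1 and 11.9 in brainstem controls. Without it 7 of 9 genes had higher coverage in both remaining telencephalon controls, but so did 25.3% of protein-coding genes, and 7 of 9 did in K27M against 11.9%. The same held in controls for 11 of 17 other forebrain factors and 7 of 16 midbrain and hindbrain factors, so the control count was not particular to forebrain genes. In K27M it held for 10 of 17 and 2 of 16. The share of protein-coding genes moved with the culture too, and the part of library quality in these counts was not tested.

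Other regulators of the same axis were read alongside. Of the further forebrain factors, *Nr2e1*, a nuclear receptor of neural progenitors, had lower H3K27me3 and higher H3K4me3 coverage in every telencephalon control than in every brainstem control. Its mean H3K27me3 coverage was 100% in brainstem and 11.5% in telencephalon controls, while *Nr2f2*, a nuclear receptor also used outside the forebrain, had 28.7% and 95.1%. Of 16 midbrain and hindbrain factors, 0 had lower H3K27me3 coverage in every telencephalon control and 3 (*Hoxa2*, *Irx3* and *Irx5*) had higher, with *Hoxa2* at 0% in brainstem and 100% in telencephalon controls. In 10 of the 17 forebrain and 11 of the 16 midbrain and hindbrain factors a promoter H3K27me3 peak was present in all 10 libraries, so most genes of both lists, like 7 of the 9 described here, kept the mark in both tissues.

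The second comparison set each K27M culture against its matched control, in the same libraries as the first. H3K27me3 coverage was lower in all 5 pairs at 0 of 9 genes, against 4.63% of protein-coding genes, and higher in all 5 at 0 of 9, against 0.0364%, where full coverage in a control left no room for a higher value at any gene but *Tbr1*. With 5 pairs the smallest two-sided p of the exact sign-flip permutation test is 0.063, and over the 9 genes p ran from 0.438 at *Otx1* to 1. *Otx1* had the lowest mean difference at -14.4 points (SD 34.0, n = 5 pairs), with 3 pairs lower and 2 higher. *Emx2* was equal in 4 pairs and 73.0 points higher in telencephalon pair 60. At the 5 genes with 100% coverage throughout, all 5 differences were 0. The H3K27me3 length within the gene and 50 kb to each side was lower in K27M in 5 of 5 pairs at *Emx1*, *Otx2* and *Six3*, by means of 10.9, 10.0 and 15.6 kb (exact sign-flip permutation p = 0.063 for each, a measure chosen after the values were seen). That is 3 of 9 genes, and 28.4% of protein-coding genes met the same rule, a share close enough that the count says nothing particular about these genes. *Six6* had the largest mean difference, -33.8 kb (SD 30.2, 4 of 5 pairs lower, exact sign-flip permutation p = 0.125). *Otx1* and *Dmrta2* had means of -2.68 and -2.21 kb, and *Emx2*, *Tbr1* and *Eomes* had means of 1.02, 1.80 and 0.304 kb.

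The fold enrichment of the H3K27me3 peaks moved the other way. Each value belongs to a whole peak, called as a broad region, and not to a summit. The highest fold enrichment at the promoter was higher in K27M in all 9 genes in both brainstem pairs, against 49.5% and 74.5% of protein-coding genes with a peak in both libraries of pairs 59 and 61. For *Otx2* it was 8.75 and 9.45 in brainstem controls and 23.8 and 29.1 in brainstem K27M, and 5.62, 14.5 and 10.5 in telencephalon controls and 6.37, 17.3 and 25.7 in telencephalon K27M. All 5 matched pairs were higher at *Emx1*, *Otx2*, *Six3*, *Six6* and *Eomes*, 5 of 9, against 2.56% of protein-coding genes. A gene without an H3K27me3 peak cannot meet this rule, and 5.79% of protein-coding genes had a promoter peak in all 10 libraries. The rule was also met by 8 of 17 other forebrain factors and 9 of 16 midbrain and hindbrain factors, so the count is not particular to these genes. The median log2 ratio of K27M to control over the genes with a peak in both libraries was 1.47 and 1.85 in the brainstem pairs and 0.71, 0.48 and 1.30 in telencephalon pairs 59, 60 and 61. Over all protein-coding genes with a peak in both it was -0.0043, 0.31, 0.30, -0.27 and 0.085. Over the 204 genes whose whole promoter window lay under H3K27me3 in all 10 libraries it was 1.36, 1.57, 0.89, 0.58 and 1.40, a set that includes 5 of the 9 genes. Fold enrichment is relative to the input of the same culture and was not scaled to the Drosophila chromatin that had been added, so it does not measure the amount of H3K27me3 in K27M cells, and the higher values were shared by other wholly covered genes.

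Of the 7 genes with an H3K27me3 peak in all libraries, *Dmrta2* and *Tbr1* were not higher in every pair. *Dmrta2* had a log2 ratio of 1.47 and 1.85 in the brainstem pairs but -0.13 and -0.23 in telencephalon pairs 60 and 61, below the 0.58 and 1.40 of the 204 wholly covered genes. Its ratio in telencephalon pair 59 was 0.78. *Tbr1* had 0.17 and 1.14 in the brainstem pairs and 0.48, -0.35 and 1.02 in the telencephalon pairs. *Otx1*, with a peak in both libraries of telencephalon pair 60, had -1.25 there.

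**Figure D3:**
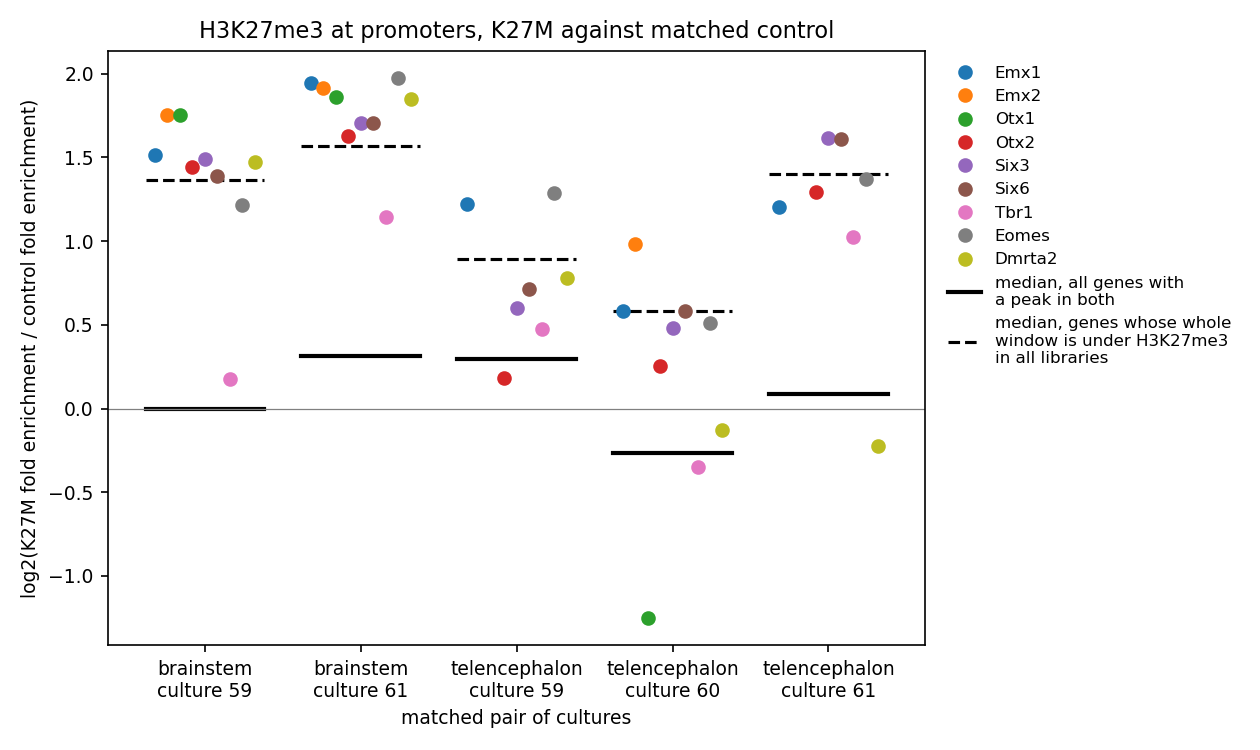
Log2 ratio of the highest H3K27me3 fold enrichment at the promoter, K27M over control, for each gene with a peak in both libraries (coloured points) in the 5 matched pairs, with the median of all protein-coding genes with a peak in both (solid line) and of the 204 genes wholly covered in all 10 libraries (dashed line). Most points lie above the solid line, and those below 0 are *Dmrta2* in telencephalon pairs 60 and 61 and *Otx1* and *Tbr1* in pair 60.

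H3K4me3 coverage was lower in K27M in 5 of 5 pairs at 1 of 9 genes, *Eomes*, against 0.469% of protein-coding genes, and higher in 5 of 5 at 0 of 9, against 3.65%. Lower coverage in all 5 pairs was also found at 1 of 17 other forebrain factors and 3 of 16 midbrain and hindbrain factors, so it was not particular to these genes. The *Eomes* differences were -23.5 and -69.3 points in the brainstem and -20.7, -22.8 and -11.5 points in the telencephalon, a mean of -29.6 points (SD 22.7, exact sign-flip permutation p = 0.063, the smallest possible). The highest *Eomes* H3K4me3 fold enrichment was also lower in all 5 pairs, by log2 ratios of -1.27, -1.46, -0.67, -2.99 and -1.90. The median log2 ratio over all genes with an H3K4me3 peak in both libraries was 0.19, 0.066, 0.67, -1.06 and -0.67 in the same order of pairs. Over the genes among the 204 wholly under H3K27me3 that had an H3K4me3 peak in both libraries, 31 to 115 genes a pair, it was -0.50, -0.24, 0.35, -2.25 and -1.72, and *Eomes* was below that median in all 5 pairs. By number of pairs lower, the next genes were *Tbr1*, lower in 4 pairs and without a peak in either library of the other (mean -5.43 points, exact sign-flip permutation p = 0.125), and *Dmrta2*, lower in 4 of 5 pairs (mean -5.62 points, exact sign-flip permutation p = 0.375). *Emx1* was lower in 3 of 5 pairs, with a mean of -7.93 points (exact sign-flip permutation p = 0.25).

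In the brainstem alone, 5 of 9 genes (*Emx2*, *Six3*, *Tbr1*, *Eomes* and *Dmrta2*) had lower H3K4me3 coverage in K27M in both pairs, against 9.11% of protein-coding genes. This tally was made after the values were seen, and with 2 pairs no test of it can pass. *Emx2* and *Six3* had no H3K4me3 promoter peak left in either brainstem K27M library. The log2 ratio of fold enrichment at the 5 genes with a peak in both libraries had a median of -0.79 and -1.23 in the 2 brainstem pairs, against 0.19 and 0.066 over all genes and -0.50 and -0.24 over the wholly covered ones. Telencephalon coverage at *Six3* went the opposite way, higher in K27M by 35.4, 16.1 and 1.19 points in pairs 59, 60 and 61, although its highest fold enrichment was lower in pairs 60 and 61, at 17.7 against 60.2 and 6.72 against 35.0. In those 2 pairs only 9.38% and 7.74% of all genes with an H3K4me3 peak in both libraries had a higher fold enrichment in K27M. Other forebrain factors had lower brainstem coverage in both pairs at 6 of 17 genes and midbrain and hindbrain factors at 6 of 16.

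**Figure D4:**
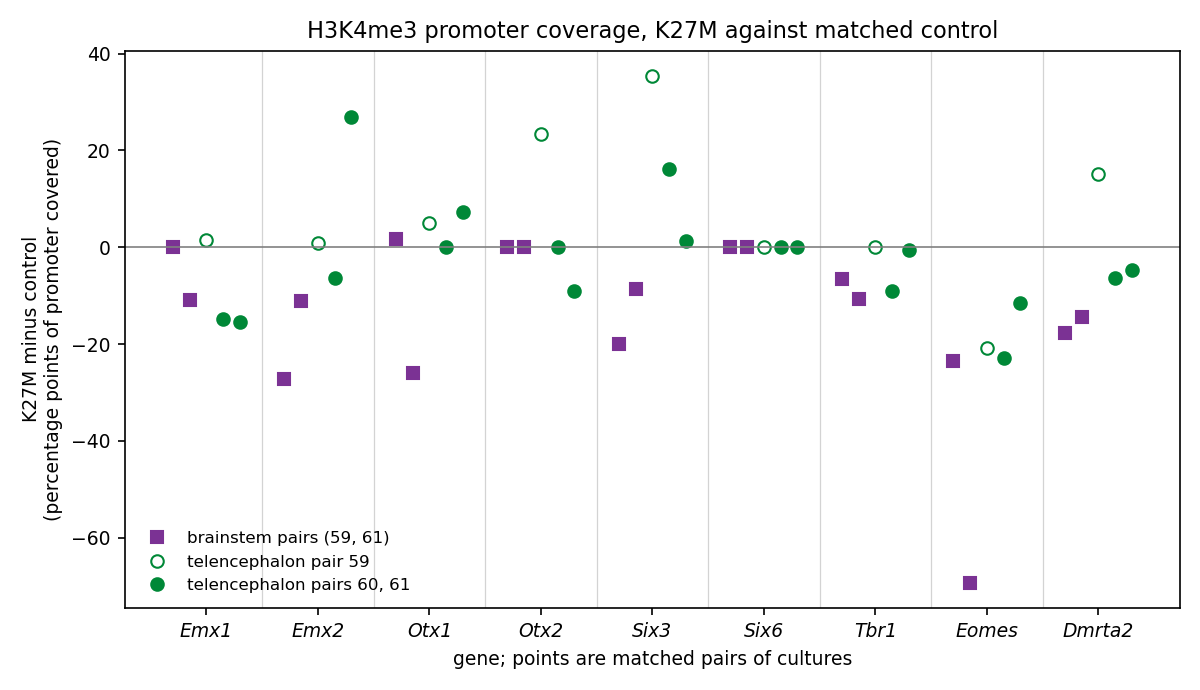
Difference in H3K4me3 promoter coverage, K27M minus matched control, in percentage points for each gene, with brainstem pairs as purple squares and telencephalon pairs as green circles, open for culture 59. *Eomes* is the gene with all 5 points below 0, and at *Six3* the squares lie below 0 and the circles above it.

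Promoter states were then assigned from consensus peaks, which required support from at least 2 cultures of a group and a combined p-value under a threshold set for each mark. In brainstem controls 6 of 9 genes were bivalent (*Emx1*, *Emx2*, *Otx1*, *Tbr1*, *Eomes* and *Dmrta2*), against 9.32% of protein-coding genes, and *Otx2*, *Six3* and *Six6* carried H3K27me3 only. In telencephalon controls 7 of 9 were bivalent, against 14.5% of protein-coding genes. The other forebrain factors were bivalent at 6 of 17 genes in brainstem and 12 of 17 in telencephalon controls, and the midbrain and hindbrain factors at 10 of 16 and 12 of 16. There *Emx2* carried H3K4me3 only, *Six6* H3K27me3 only, and *Otx2* and *Six3* joined the bivalent group. In K27M cultures *Emx2* carried H3K27me3 only in the brainstem and H3K4me3 only in the telencephalon, *Otx2* carried H3K27me3 only in both tissues, and the other 7 genes kept the state that they had in controls of the same tissue. No gene was without both marks in any of the 4 groups. The telencephalon count was 3 when a peak of each mark was required in every control culture, the genes then being *Emx1*, *Eomes* and *Dmrta2*.

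Genes with the profile most like that of each of the 4 genes whose H3K27me3 coverage varied were found by the mean absolute difference in promoter coverage over the 20 libraries. For *Emx2* they included *Nr2e1* at 15.4 percentage points. For *Otx1* they included *Ina*, a neuronal intermediate filament gene, at 18.7 and *Emx2* at 19.1. *Emx1* had *Notum* at 2.70, *Pth2* at 4.18 and *Hrk* at 4.37. *Tbr1* had *Kcnh3* at 4.45, *Lhx3* at 5.57 and *Sall4* at 5.79.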

How the data were processed

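H3K27me3 and H3K4me3 ChIP-seq was done on 10 OPC cultures, each with its own input. According to the labels' processing notes the authors used Trim Galore 0.6.7, BWA 0.7.17-r1188 and MACS2 2.2.7.1 on mm10. The deposited files are peak lists per library, against input, with no reads: for each peak the deposited columns hold a score, the fold enrichment (a ratio), and the −log10 p-value and −log10 q-value given by the authors' peak caller. Read depth behind a peak was not used here, so counts of peaks stand in for it, and a base outside every peak means only that no peak was called. Peaks were not scaled to the Drosophila spike-in.

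From these lists the percent of promoter and gene-body bases under merged peaks and the highest fold enrichment of a promoter peak were computed with Python 3.11.15, numpy 2.4.6 and scipy 1.17.1, using GENCODE M21 (the study used a later release). The consensus rule of the study was rewritten here (at least 2 libraries, weak and stringent p of 1e-06 and 1e-10 for H3K4me3, 1e-04 and 1e-08 for H3K27me3). State assignment covered all protein-coding genes, not the expressed ones alone. Tissues were compared by an exact permutation test over 10 splits, and genotypes by an exact sign-flip test over 32 arrangements of the matched pairs that the study describes, both two-sided. Replicates are separate cultures of pooled tissue. Deviations from group means of same-numbered control and K27M cultures had correlations across genes of -0.111 to 0.590 for H3K27me3 and 0.0617 to 0.756 for H3K4me3. Functions were tested on simulated data. All 9 genes are named throughout, and of the other lists the 3 with the largest tissue difference in control H3K27me3 coverage, together with those counted, apart from genes not reported. The 9 genes and all lists and rules were chosen with earlier results of these data known. Some genes and sequences are not reported here. Input libraries have no file of their own and were not analysed here. Alternatives are given at the end.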

Additional observations from a re-analysis of the deposited data

Results flagged for a closer look

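The H3K4me3 coverage of the *Six3* promoter windows was lower in K27M in both brainstem pairs, by a mean of 14.3 points. It was higher in all 3 telencephalon pairs, by a mean of 17.5 points, so the coverage difference had opposite signs in the 2 tissues. The highest fold enrichment differed: in telencephalon pairs 60 and 61 it was lower in K27M, at 17.7 against 60.2 and 6.72 against 35.0. These are log2 ratios of -1.77 and -2.38. Most genes fell in these pairs, with medians of -1.06 and -0.67 over all genes with a peak in both libraries. Over the wholly covered genes the medians were -2.25 and -1.72. In pair 59 only K27M had a peak at *Six3*, at 4.29. In brainstem controls the highest fold enrichment at *Six3* was 7.51 and 2.39, and the consensus rule called no H3K4me3 at *Six3* there. The telencephalon mean difference exceeded the brainstem one by 31.9 percentage points, and this difference between tissues was not tested. The largest telencephalon difference, 35.4 points, came from culture 59, whose control library had no H3K4me3 peak at *Six3*. Without that pair, a setting chosen after seeing the data, the telencephalon mean was 8.64 points and the difference between tissues 23.0 points.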

How the results depend on the processing

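Of 94 alternative values of the 8 counts of genes, 74 stayed within 1.5 times the reported count and 20 did not. None of the 8 single differences changed sign in 88 alternatives. These were differences between tissues at genes picked because their groups did not overlap, so leaving out 1 culture could not reverse them. Fold enrichment was not among their alternatives. For lower H3K27me3 coverage in telencephalon controls (1 gene, *Emx2*), fold enrichment as the measure gave 2, and leaving out 1 culture gave 1 to 3, with 3 without telencephalon 60. For the same in K27M (1 gene, *Otx1*), windows of 5000 bp to each side gave 2, fold enrichment gave 5, and leaving out 1 culture gave 1 to 2, with 2 without telencephalon 60. For higher H3K4me3 coverage in telencephalon controls (2 genes), peaks of at least 3-fold enrichment gave 1, the gene body gave 1, fold enrichment gave 0, and leaving out 1 culture gave 2 to 7. For the same in K27M (4 genes), fold enrichment gave 2 and leaving out 1 culture gave 4 to 7. The upper value of both came without telencephalon 59. Lower H3K4me3 coverage in K27M in all pairs (1 gene, *Eomes*) was met by 2 genes with windows of 5000 bp to each side, and by 1 to 3 on leaving out 1 pair, with 3 without telencephalon 59. In the gene body the count was also 1 but the gene was *Emx1*. The bivalent count in brainstem controls (6) was 3 when 50% of a promoter had to lie under each mark, and leaving out 1 of its 2 cultures could give no consensus. In telencephalon controls (7) it was 3 when every culture needed a peak, and 3 to 7 on leaving out 1 culture, with 3 without 60 and 4 without 61. The causes were not tested.

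With the culture number as a block between tissues, which the numbers alone give, the H3K27me3 counts were 3 in controls and 2 in K27M, and the H3K4me3 counts were 2 and 4. With no replicate block between genotypes, 0 genes met the H3K27me3 rule and 0 the H3K4me3 rule, against 0 and 1 in matched pairs. Crossing the numbers of the 2 brainstem pairs, chosen after seeing the data because their H3K27me3 deviations had a correlation of -0.111, gave 0 genes. With 2 or 3 cultures a group, the smallest p a tissue test allows is 0.1, and peak lists do not show signal below the calling threshold.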

Other observations

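One forebrain factor outside the 9 genes, picked out after its values were seen, had H3K27me3 that depended on both tissue and genotype. *Nr2f1*, a nuclear receptor that patterns the cortex along its length, had 0% of its promoter windows under H3K27me3 in all 4 brainstem libraries and in all 3 telencephalon controls, and 50.8%, 100% and 100% in telencephalon K27M cultures 59, 60 and 61. Its H3K4me3 coverage was 65.8% ± 3.88 (SD, n = 3) in telencephalon controls and 72.4% ± 10.6 (SD, n = 3) in telencephalon K27M, so both marks were called at the same promoter in those K27M cultures. Its relative *Nr2f2* had H3K27me3 over 28.7% ± 2.52 (SD, n = 2) in brainstem and 95.1% ± 8.54 (SD, n = 3) in telencephalon controls. The direction at *Nr2f2* was opposite to that at *Emx2*. *Lhx2*, a LIM-homeodomain factor of the cortical primordium, was wholly under H3K27me3 in both brainstem K27M cultures and had 12.3%, 59.2% and 15.8% in the telencephalon K27M cultures, whereas in controls it had 59.2% ± 15.5 (SD, n = 2) in brainstem and 56.1% ± 40.8 (SD, n = 3) in telencephalon, with overlapping groups.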
